A study of Mus musculus with 6 samples.

Results

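The 2 libraries of Ikaros ZnF4 mutant leukaemia cells were compared with the 2 libraries of Ikaros ZnF1 mutant cells, day by day, among the 6 libraries of the series. The cells were mouse pro-B acute lymphoblastic leukaemia cells, grown from whole C57BL/6 bone marrow that had been transduced at day 0 with a retrovirus carrying BCR-ABL p185 and a YFP reporter, so mutant and wild type cells all carried the oncogene. The genotypes were Ikaros_ZnF4-/-, Ikaros_ZnF1-/- and wild type (wt), each with 1 library of poly(A) RNA at day 21 and 1 at day 28 of culture. Wild type libraries entered the fit to share its estimate of the spread and are quoted beside the mutants. The labels do not say whether the days of a genotype were separate cultures, and whatever set 1 culture apart cannot be told apart from its genotype. Of 22098 gene symbols, 11379 reached an RPKM (reads per kilobase of transcript, scaled to the mapped reads of the library) of 1 in at least 2 of the 6 libraries and were tested.

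Ikaros, encoded by Ikzf1, is a zinc finger transcription factor that drives lymphocyte development, and its loss is frequent in BCR-ABL leukaemia. It binds DNA through a row of N-terminal fingers. The second and the third finger make the main contacts with the core motif, and the first and the fourth flank them and adjust which sites are bound. BCR-ABL is a fusion tyrosine kinase that replaces much of the cytokine signalling on which early B cells depend. The comparison asks how loss of the fourth finger differs from loss of the first.

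The coding sequences of the 4 fingers are shown because the mutants are named for the first and the fourth of them. They are from the principal Ikzf1 transcript of GENCODE M21 (515 residues, 8 exons, chromosome 11, plus strand, build GRCm38), each from its first to its last zinc-binding residue. Capitals mark the codons of the cysteine and histidine pairs that hold the zinc.
finger 1: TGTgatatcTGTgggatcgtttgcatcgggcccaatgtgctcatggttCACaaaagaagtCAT
finger 2: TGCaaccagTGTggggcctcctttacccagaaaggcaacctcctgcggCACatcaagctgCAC
finger 3: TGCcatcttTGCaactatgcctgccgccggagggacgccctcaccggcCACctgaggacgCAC
finger 4: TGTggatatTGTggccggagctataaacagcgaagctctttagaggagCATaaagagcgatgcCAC
Finger 1 (chr11:11748505-11748567, residues 119 to 139) lies in exon 4, and finger 4 (chr11:11758212-11758277, residues 203 to 224) lies in exon 6. Fingers 2 (chr11:11754024-11754086) and 3 (chr11:11754108-11754170) share exon 5, between them. Finger 4 is coded by 66 bases and each of the others by 63.

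Ikzf1 had 186 and 165.9 RPKM in the ZnF4 mutant at day 21 and day 28, against 108 and 91.4 RPKM in the ZnF1 mutant and 89.2 and 78.7 RPKM in wild type. The ZnF4 libraries were the highest of the 6 and did not overlap with the others. The difference between the mutants was 0.82 ± 0.07 (log2(RPKM + 1) scale, ± standard error, n = 2 per genotype; limma, adjusted p = 0.000876). An RPKM covers the whole transcript, so it does not check the loss of a single finger. Of the 4 tested Ikaros family genes Ikzf4 (Eos) was also called higher, at 1.4 and 0.8 RPKM in the ZnF1 mutant and 2.4 and 2.5 RPKM in the ZnF4 mutant. That call was lost without either library of day 28 of the mutants (adjusted p up to 0.0761). Ikzf3 (Aiolos), the relative that is abundant in B cells, differed by -0.02 (95% interval -0.22 to 0.19), and Ikzf2 (Helios) was at 0.1 RPKM or below in every library and was not tested.

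The mutants differed widely. By limma with genotype and day as terms, 5177 of 11379 genes (45.5%) were called at an adjusted p below 0.05: 2540 (22.3%) were higher in the ZnF4 mutant and 2637 (23.2%) lower. These shares are the background against which the gene groups are read. At least 2-fold apart on both days were 188 genes that were higher (1.65%) and 1013 that were lower (8.9%), so the large differences lay mostly on the lower side. Of the 1013, 422 were below 1 RPKM in both ZnF4 libraries, and of the 188, 51 were below 1 RPKM in both ZnF1 libraries; these genes passed the filter only through the other libraries. Across genes, the difference at day 21 and that at day 28 correlated at 0.91, as a description over genes of separate libraries, and the median difference was 0.03. The count of higher genes fell to 752 and 958 when the ZnF1 library of day 21 or of day 28 was left out, and to 1532 and 1537 when that of wild type was. The count of lower genes was 1674 without the ZnF1 library of day 28.

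**Figure D1:**
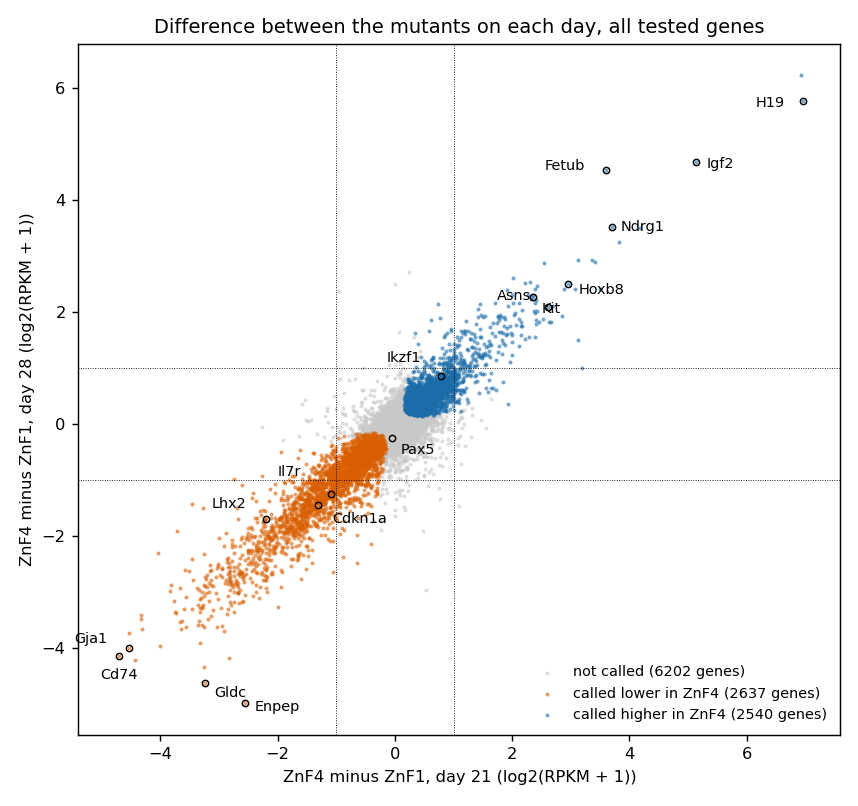
Difference between the ZnF4 and the ZnF1 mutant at day 21 (x axis) and at day 28 (y axis), on the log2(RPKM + 1) scale, with 1 point for each of 11379 genes, coloured by the limma call; dotted lines mark 2-fold. Called genes (2637 lower, 2540 higher) lie on the same side on both days. At least 2-fold apart on both days are 1013 genes in the lower left arm and 188 in the upper right one.

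The imprinted RNAs H19 and Igf2 led the higher genes. H19, which makes no protein, reached 3062.2 and 2008.3 RPKM in the ZnF4 mutant, 23.7 and 36 RPKM in the ZnF1 mutant, and 12.2 and 1.3 RPKM in wild type. In the ZnF4 libraries it was far above every other library, with a difference between the mutants of 6.36 ± 0.69 (adjusted p = 0.0017) and an RPKM ratio of 84.9. Igf2, the fetal growth factor next to it, had 247.2 and 175.2 RPKM in ZnF4 mutant cells, 6.1 and 5.9 RPKM in the ZnF1 mutant, and 0.7 and 0.2 RPKM in wild type (4.90 ± 0.14, adjusted p = 0.000376). Igf2as, antisense to Igf2, had 9.7 and 7.9 RPKM with the ZnF4 mutation and at most 0.2 RPKM elsewhere. No strand-marking step is named for these libraries, so reads of the pair cannot be told apart, nor can those of the microRNA Mir675 from H19, in which it lies.

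The genes around H19 were chosen after their values were seen and are given in the order of the RefSeq table of GRCm38.p6. On the side away from Igf2, the nearest tested genes were Lsp1 and Tnni2. Lsp1, an actin-binding protein of leukocytes, had 299.9 and 289.8 RPKM in ZnF4 mutant cells, 72 and 73 RPKM in the ZnF1 mutant, and 99.2 and 124.3 RPKM in wild type (2.01 ± 0.11, adjusted p = 0.000426). Tnni2, a troponin of fast skeletal muscle that the rule for leading genes also names, had 42.7 and 35.4 RPKM in ZnF4 mutant cells, 1.4 and 2.2 RPKM in the ZnF1 mutant, and 4.4 and 5.7 RPKM in wild type (3.85 ± 0.18, adjusted p = 0.000376). The run of higher genes did not go on to the next tested gene on either side. Ctsd, beyond Tnni2, encodes a lysosomal protease and was lower (-2.70 ± 0.20). It had 128.3 and 129 RPKM in ZnF4 mutant cells, 773.3 and 921.3 RPKM in the ZnF1 mutant, and 198.7 and 135.6 RPKM in wild type. For Ctsd the ZnF1 libraries thus stood apart. Tspan32, beyond Igf2, differed by -0.01 ± 0.10 (adjusted p = 0.967). Lsp1 lies 5 and Ctsd 9 genes from H19 in that order, with untested genes between.

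Of the 13 tested imprinted genes 4 were called higher and 5 lower, so the list did not move one way. Grb10, an adaptor that restrains insulin and growth factor receptors, was higher (1.23 ± 0.15), at 30.5 and 16.8 RPKM in the ZnF4 mutant against 10.9 and 7.6 RPKM in the ZnF1 mutant. Igf2r, which clears IGF2 from the cell surface, was lower (-1.05 ± 0.11). The lower count was 3 without the ZnF1 library of day 28 or the ZnF4 library of day 21. DNA methylation and its readers, which act in imprinting, showed small differences. Dnmt1, the maintenance methyltransferase, was higher (0.75 ± 0.07, adjusted p = 0.00117), at 194 and 184.9 RPKM against 116.8 and 108 RPKM, and among 10 tested genes of that list 4 were higher and 2 lower. Those counts were 1 and 0 when the ZnF1 library of day 21 was left out, 2 and 1 for that of day 28, and 2 higher for either wild type library. With the ZnF4 library of day 21 or of day 28 left out, 1 and 0 were lower. Ctcf, whose protein insulates Igf2 from its enhancers, was higher by 0.37 ± 0.07 (adjusted p = 0.0132), but not when either wild type or either ZnF1 library, or both wild type libraries, were left out (adjusted p up to 0.125).

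Ndrg1, a stress-induced gene of growth arrest and hypoxia, had 45.8 and 43.6 RPKM in the ZnF4 mutant against 2.6 and 2.9 RPKM in the ZnF1 mutant (3.61 ± 0.15). The ZnF4 libraries were also the highest in Fetub (4.07 ± 0.26), which encodes fetuin B. They were the highest too in Tac4 (3.53 ± 0.16), the tachykinin hemokinin of B cell precursors, and in the RNA-binding gene Rbpms (3.02 ± 0.12). Fetub was not low in wild type, where it had 6.4 and 8.9 RPKM, against 0.3 and 0.8 RPKM in the ZnF1 mutant and 14.7 and 40.9 RPKM in the ZnF4 mutant. Prdm8, a histone methyltransferase family member (3.15 ± 0.14), the ephrin ligand gene Efna1 (2.74 ± 0.25) and the tubulin gene Tubb3 (2.95 ± 0.43) completed this set. For Tubb3 the adjusted p rose to 0.0685 when either ZnF4 library was left out. Among genes with at least 4 RPKM in both wild type libraries, Celsr1, a cadherin of planar polarity, had 11.2 and 8.5 RPKM in the ZnF4 mutant against 0.7 and 1.5 RPKM in the ZnF1 mutant (2.38 ± 0.23). Mt2, a metallothionein that binds zinc and other metals, reached 241 and 208.2 RPKM against 40.8 and 56 RPKM (2.20 ± 0.29). Car3, a carbonic anhydrase (2.23 ± 0.21), was at 6.3 and 14.6 RPKM in wild type, in the range of the ZnF4 mutant at 9.5 and 12.5 RPKM.

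Of 8 tested Hox genes, 4 were called higher, all from the B cluster, and the 2 called lower were of the C cluster. With low values kept, 25 Hox genes entered, of which 5 were higher and 17 lower, and with a mean RPKM of at least 4 only Hoxb7 remained. Hoxb8, a homeobox gene active in early haematopoietic progenitors, was listed at 0 in wild type. It had 0.1 and 0.3 RPKM in the ZnF1 mutant, and 7.5 and 6.4 RPKM in the ZnF4 mutant (2.73 ± 0.14). Hoxb8 passed the filter only through the ZnF4 libraries, so it could be called higher but hardly lower. Hoxb7 had 18.6 and 11.4 RPKM in the ZnF4 mutant against 2.7 and 2.6 RPKM in the ZnF1 mutant (2.09 ± 0.19), and Hoxb6 4.9 RPKM in both ZnF4 libraries against 1.1 and 1.6 RPKM (1.34 ± 0.14). Hoxc10 and Hoxc6 were at 1 to 1.3 RPKM in the ZnF1 mutant and at 0.2 RPKM or below in the other 4 libraries. They passed the filter only through the ZnF1 mutant, so they could be called lower but hardly higher.

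**Figure D2:**
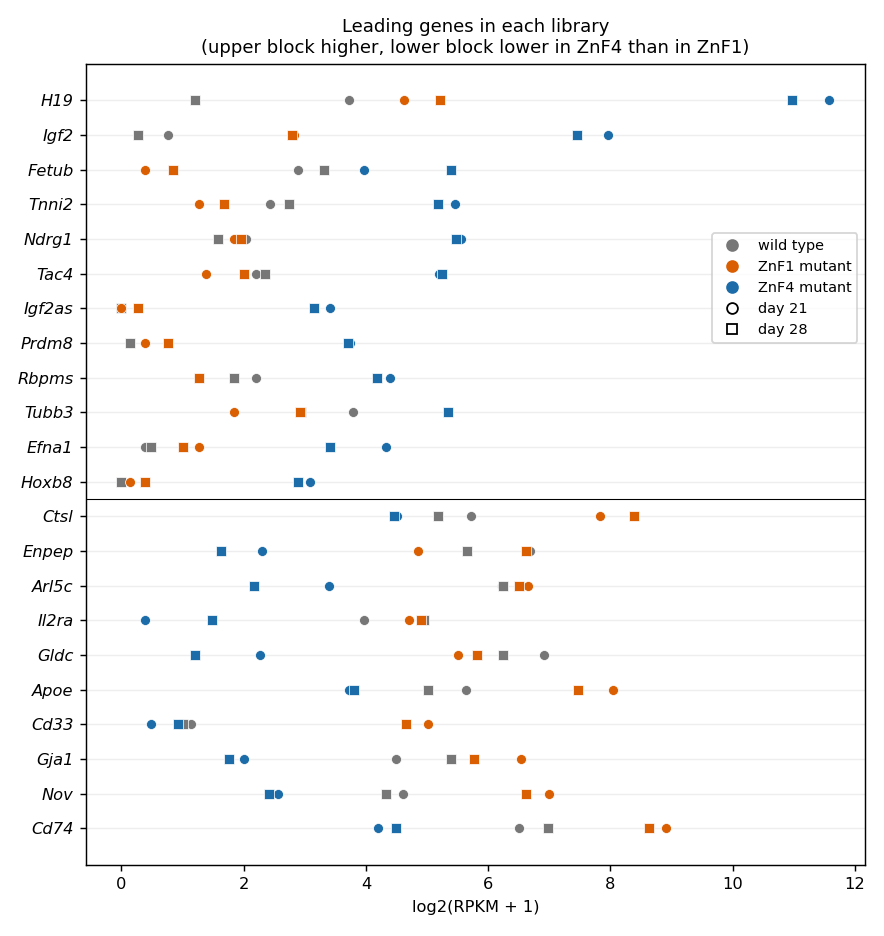
Level of 12 leading higher and 10 leading lower genes in the 6 libraries, as log2(RPKM + 1) on the x axis, with colour for genotype and circles and squares for day 21 and day 28. The ZnF4 libraries lie to the right of all others in the upper block, for H19 at 3062.2 and 2008.3 RPKM, and to the left of the ZnF1 libraries in every row of the lower block.

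Transcripts of macrophages and of stromal cells led the lower side. All 30 tested macrophage markers were called lower, with a median of -2.97, as were all 26 tested stromal and endothelial markers, with a median of -2.06. At a mean RPKM of at least 4, 26 macrophage and 13 stromal markers were tested, and all were lower. The 34 macrophage entries summed to 366.1 and 422.2 RPKM in the ZnF4 mutant, 3212.5 and 3119.5 RPKM in the ZnF1 mutant, and 813.8 and 529.6 RPKM in wild type. For the 32 stromal entries the sums were 98.8 and 103.1 RPKM in the ZnF4 mutant, 692.7 and 646.5 RPKM in the ZnF1 mutant, and 171.3 and 126.5 RPKM in wild type. The ZnF1 libraries thus stood apart from the other 4, which were nearer to each other. In bulk RNA, fewer cells of a type and less RNA per cell cannot be told apart. Without 1 library, 26 to 30 of the macrophage and 24 to 26 of the stromal markers were still called lower.

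Single markers showed the same order. C1qb, a complement gene of macrophages, had 19.3 and 20.8 RPKM in the ZnF4 mutant against 249.8 and 246.9 RPKM in the ZnF1 mutant (-3.57 ± 0.15). The sialic acid receptor Cd33 (-4.13 ± 0.20), with 31.4 and 24.3 RPKM in the ZnF1 mutant, was at 1.2 RPKM or below elsewhere. Lyz2, the lysozyme of macrophages and the most abundant gene of the list, had 104.6 and 145.6 RPKM against 927.8 and 893.5 RPKM, named here for its level and not by the rule. Mgp, an extracellular matrix protein, had 9.2 and 9.6 RPKM in the ZnF4 mutant against 99 and 102.3 RPKM in the ZnF1 mutant (-3.29 ± 0.13). The stromal chemokine Cxcl12 was near 1 RPKM in the ZnF4 mutant and at 10.3 and 8.7 RPKM in the ZnF1 mutant (-2.32 ± 0.10). Of the macrophage markers, 1 was at 0 in both ZnF4 libraries and none was at 0 in all 6, and of the stromal entries only Lum was at 0 in all 6.

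Markers of other cell types were few. Of 15 granulocyte entries 2 were tested and both were lower, led by the gelatinase Mmp9, at 8.9 and 34.7 RPKM in the ZnF4 mutant and 94.5 and 100 RPKM in the ZnF1 mutant, a call lost when low values were kept (adjusted p = 0.0624) and when the ZnF1 library of day 21 was left out (adjusted p = 0.103). Only 1 of the 2 stayed called when any 1 mutant library was left out. The granule genes Elane, Ltf and Mpo were at 0 in all 6 libraries. The mast cell list had 1 tested gene, Cpa3, at 3.3 and 3.4 RPKM in the ZnF1 mutant and at most 0.4 RPKM elsewhere, and the erythroid and megakaryocyte list had Pf4, which was lower by 2.09 on the log2 scale (SE 0.11). Of 6 tested T cell and natural killer genes 2 were lower, Cd4, which macrophages can also express, and Cd28, and 10 of the 25 entries, among them Cd3e and Cd8a, were at 0 throughout. Of 3 tested dendritic cell markers 2 were lower, among them Itgax (-1.88 ± 0.14). Cpa3, Cd4, Cd28 and the lower granulocyte and dendritic genes other than Mmp9 and Itgax reached 1 RPKM only in the ZnF1 libraries. They passed the filter only through those libraries, so they could be called lower but hardly higher.

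**Figure D3:**
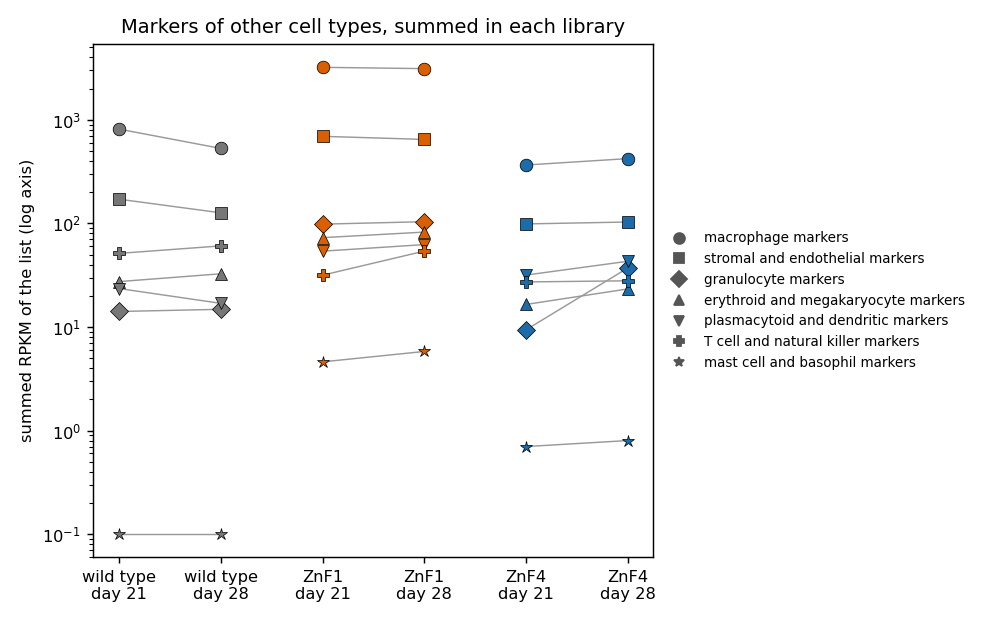
Summed RPKM (y axis, log scale) of the marker lists of 7 other cell types in each of the 6 libraries; colours give the genotype and symbols the list. Macrophage markers reached 3212.5 and 3119.5 RPKM in the ZnF1 mutant and 366.1 to 813.8 RPKM in the other libraries.

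Other leading lower genes fell below wild type as well. Nov, a secreted matricellular protein, had 4.9 and 4.3 RPKM in ZnF4 mutant cells, 126 and 97.4 RPKM in the ZnF1 mutant, and 23.3 and 19.2 RPKM in wild type (-4.32 ± 0.08, adjusted p = 0.000255). Gja1, the gap junction protein connexin 43, was at 3 and 2.4 RPKM against 92.3 and 53.6 RPKM (-4.27 ± 0.38), and the lipid carrier Apoe at 12.2 and 13 RPKM against 262.2 and 175.7 RPKM (-3.99 ± 0.18). Arl5c, a small GTPase of the ARF family, had 9.5 and 3.5 RPKM, against 99.3 and 90.2 RPKM in the ZnF1 mutant and 73.8 and 74.5 RPKM in wild type (-3.80 ± 0.30). For Arl5c wild type was near the ZnF1 mutant.

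Gene groups that macrophages use strongly were lower as well, and the part of the macrophage transcripts in them was not tested. Of 31 tested lysosomal genes 28 were lower, with a median of -1.16. They included the proteases Ctsl (-3.62 ± 0.25), at 21.7 and 21.1 RPKM in the ZnF4 mutant against 227.6 and 332.3 RPKM, and the hexosaminidase Hexa (-3.43 ± 0.13). Of 11 tested genes of MHC class II presentation 10 were lower (median -1.48). Some of them, such as Cd86 and Cd80, passed the filter only through the ZnF1 libraries. With a mean RPKM of at least 4, 5 were tested and 4 were lower. Cd74, the invariant chain, led all lower genes, with 17.4 and 21.6 RPKM in the ZnF4 mutant, 480.9 and 396.8 RPKM in the ZnF1 mutant, and 90.1 and 124.6 RPKM in wild type (-4.42 ± 0.18, adjusted p = 0.000376). H2-Ob, a class II chaperone typical of B cells, was at 12.5 and 9.8 RPKM in the ZnF4 mutant but at 25.4 and 22.6 RPKM in the ZnF1 mutant and 24.5 and 22.5 RPKM in wild type (-1.05 ± 0.08). For H2-Ob the ZnF4 libraries were the ones that stood apart.

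Of 28 tested interferon-stimulated genes 23 were lower and none higher, with a median of -0.87. Zbp1, a sensor of nucleic acids, had 0.6 and 0.5 RPKM in ZnF4 mutant cells, 14.7 and 17.1 RPKM in the ZnF1 mutant, and 12.3 and 11.9 RPKM in wild type (-3.44 ± 0.11). Gbp2, a guanylate-binding protein of host defence, had 10.7 and 8.8 RPKM in ZnF4 mutant cells, 84.7 and 102.3 RPKM in the ZnF1 mutant, and 58.4 and 90.9 RPKM in wild type (-3.14 ± 0.20). In Zbp1, Gbp2, Gbp3 and Ddx58, 4 of the 5 members with the smallest p, the ZnF4 libraries lay below both wild type and ZnF1 libraries, whereas Oas2 was low in wild type too. The receptor chain Ifngr1 was at 35.6 and 35.8 RPKM against 126.4 and 134.3 RPKM (-1.84 ± 0.07). Without the ZnF4 library of day 21 or of day 28 the lower count of the list was 14 and 10. Of 12 tested genes of MHC class I presentation 6 were lower, led by Tapbp (-1.03 ± 0.09), with 2 to 5 without 1 library; it was 2 without the ZnF1 library of either day and 3 without the ZnF4 library of day 21.

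Of 27 tested B-lineage transcription factors 4 were higher and 8 lower, with a median of -0.06. The share called, 44.4%, was near the 45.5% of all tested genes, and 4 of the 27 were 2-fold lower on both days. Pax5, which fixes B cell identity, had 170.6 and 145 RPKM with the ZnF4 mutation and 177.5 and 172.6 RPKM in the ZnF1 mutant. Its difference was -0.15 (95% interval -0.37 to 0.06; adjusted p = 0.2). For Ebf1, which specifies the lineage, it was 0.20 (95% interval -0.03 to 0.43; adjusted p = 0.127). Those that were lower included Id2, an inhibitor of E proteins (-2.13 ± 0.17), the Oct factor Pou2f2 (-1.08 ± 0.09), and Sfpi1, which encodes PU.1 and is high in macrophages (-0.94 ± 0.08). Pou2f2 had 4.5 and 4.3 RPKM in ZnF4 mutant cells, 9.9 and 10.9 RPKM in the ZnF1 mutant and 8.2 RPKM in both wild type libraries. The higher count of the list was 2 under several settings, among them without any 1 library other than the ZnF4 library of day 21.

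Genes of the pre-B receptor split, with 6 of 23 higher and 9 lower. Igll1 (λ5, part of the surrogate light chain) had 1124.8 and 1005.9 RPKM with the ZnF4 mutation and 756.8 and 704.6 RPKM in the ZnF1 mutant (0.54 ± 0.11, adjusted p = 0.0133), with no overlap. The call did not survive leaving out any single library, or both wild type ones (adjusted p as high as 0.118). Vpreb2 was also higher (0.54 ± 0.10), though not once any 1 mutant library was left out (adjusted p up to 0.0997), while Vpreb1 overlapped (0.05 ± 0.17). Dok3, an adaptor that dampens B cell receptor signals, was lower (-2.19 ± 0.26), at 5.5 and 4.5 RPKM against 18.8 and 36.6 RPKM. Cd22, an inhibitory receptor of B cells, was higher (1.15 ± 0.13), at 10.1 and 7 RPKM against 4 and 2.6 RPKM. Without 1 library the list had 1 to 3 higher and 3 to 7 lower members. The signalling chain Cd79a (-0.34; 95% interval -0.62 to -0.06) was not called, with an adjusted p of 0.0531.

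Of 13 tested genes of V(D)J recombination, which assembles antibody genes, 2 were higher and 3 lower. The share called, 38.5%, was below the 45.5% of all tested genes. Dntt, the terminal transferase that adds bases at the joints, had 36.7 and 18.6 RPKM in ZnF4 mutant cells, 85.2 and 76.6 RPKM in the ZnF1 mutant, and 118.8 and 106.7 RPKM in wild type (-1.59 ± 0.21, adjusted p = 0.00315). The recombinase genes overlapped between the mutants. Rag1 had 49.6 and 44.3 RPKM with the ZnF4 mutation and 54.7 and 23.9 RPKM in the ZnF1 mutant (0.36; 95% interval -0.26 to 0.99), and Rag2 differed by 0.15 (95% interval -0.08 to 0.37). Dclre1c (Artemis), which opens the hairpin ends, was lower (-0.86 ± 0.08), and Xrcc5 (Ku80) was higher (0.72 ± 0.07). The other higher gene, Hmgb2, was not called when any library but the ZnF4 library of day 28 was left out, when both wild type libraries were, or when low values were kept (adjusted p as high as 0.183).

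Surface molecules that mark B cell stages were mostly lower in the ZnF4 mutant, with 13 of 22 called lower, 1 higher and a median of -1.07. The single higher call was gone when the ZnF1 library of day 28 or either ZnF4 library was left out. Il2ra (CD25), a marker of pre-B cells, had 0.3 and 1.8 RPKM in ZnF4 mutant cells, 25.1 and 28.8 RPKM in the ZnF1 mutant, and 14.7 and 29.8 RPKM in wild type (-3.87 ± 0.23). Cd2, another antigen of pre-B cells, had 18.4 and 11.1 RPKM, against 116.2 and 107.6 RPKM in the ZnF1 mutant and 60.8 and 54.6 RPKM in wild type (-2.88 ± 0.15). In these genes the ZnF4 libraries were the lowest of the 6. Ly6d, which marks B-committed lymphoid progenitors, had 2.2 and 3.2 RPKM in ZnF4 mutant cells, 23.6 and 49.8 RPKM in the ZnF1 mutant and 107.2 and 110.1 RPKM in wild type (-3.27 ± 0.23). Enpep, the BP-1 aminopeptidase of the pro-B to pre-B stage, had 3.9 and 2.1 RPKM against 27.8 and 97.2 RPKM (-3.77 ± 0.67), a call that ended when low values were not filtered or either ZnF4 library was left out (adjusted p as high as 0.106). The hyaluronan receptor gene Cd44 (-1.44 ± 0.07) was lower too. None of the 22 genes is on the macrophage or stromal list, but neither is any of the lysosomal genes. The lack of overlap therefore does not tell which cells made the RNA, and the part of macrophage and stromal transcripts was not tested. Cd44 is not restricted to B cells.

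Most tested receptors for cytokines were lower in the ZnF4 mutant. Of 23 tested genes 16 were lower and 2 higher, with a median of -1.02. Il7r, the interleukin 7 receptor on which mouse pro-B cells depend, had 38.3 and 39.7 RPKM in ZnF4 mutant cells, 82.3 and 95.8 RPKM in the ZnF1 mutant, and 41.4 and 45.5 RPKM in wild type (-1.17 ± 0.07, adjusted p = 0.000503). Here the ZnF1 libraries stood apart, and those of the ZnF4 mutant were near wild type. The 2 higher genes were Kit and Igf1r. Kit, the stem cell factor receptor of early progenitors, had 17.4 and 12.5 RPKM in ZnF4 mutant cells, 2.6 and 1.8 RPKM in the ZnF1 mutant, and 0.1 and 0 RPKM in wild type (2.31 ± 0.11, adjusted p = 0.000406). Igf1r, the receptor through which IGF2 signals, was chosen after its value was seen and had 9 and 7.2 RPKM against 3.2 and 1.6 RPKM (1.45 ± 0.21). Only 1 gene of the list was higher when either ZnF1 library was left out.

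Among 16 tested stem and progenitor genes 4 were higher and 8 lower, so Kit did not stand for the list. Lhx2, a LIM homeobox gene of progenitor expansion, had 11 and 13.8 RPKM in ZnF4 mutant cells, 54.4 and 47 RPKM in the ZnF1 mutant, and 0.3 RPKM in both wild type libraries (-1.95 ± 0.14). Both mutants were above wild type and did not overlap with each other. Mycn had 9.2 and 15.3 RPKM, against 30 and 39.8 RPKM in the ZnF1 mutant and 28.8 and 41.6 RPKM in wild type (-1.46 ± 0.09). Ly6a (Sca-1), an antigen of stem cells and activated lymphocytes, was lower (-2.70 ± 0.15), and so was Lmo2 (-1.39 ± 0.10).

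Targets and feedback regulators of STAT5, the transcription factor that cytokine receptors and BCR-ABL activate, gave 11 lower and 3 higher genes among 19 tested (median -0.39). Socs1, a feedback inhibitor of JAK kinases, had 1.3 and 1.9 RPKM in ZnF4 mutant cells, 9.6 and 16.7 RPKM in the ZnF1 mutant, and 6.4 and 9.9 RPKM in wild type (-2.41 ± 0.12). Pim1, a survival kinase, had 59.5 and 70.1 RPKM, against 138.5 and 148.8 RPKM in the ZnF1 mutant and 116.9 and 154.9 RPKM in wild type (-1.14 ± 0.09). In both genes the ZnF4 libraries were below all others. The related inhibitor Socs3 was lower by 1.53 on the log2 scale (SE 0.09). Leaving out either ZnF1 library reduced the counts to 5 lower and 0 higher, and leaving out the ZnF4 library of day 21 or any of wild type left 1 higher. Of 19 tested targets and regulators of the ERK pathway 47.4% were called, near the 45.5% of all tested genes. They gave 3 higher and 6 lower, among them the immediate early gene Fos (-2.94 ± 0.25) and the ERK inhibitor Spry4 (1.39 ± 0.15). The higher count there was 5 without the ZnF1 library of day 21.

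**Figure D4:**
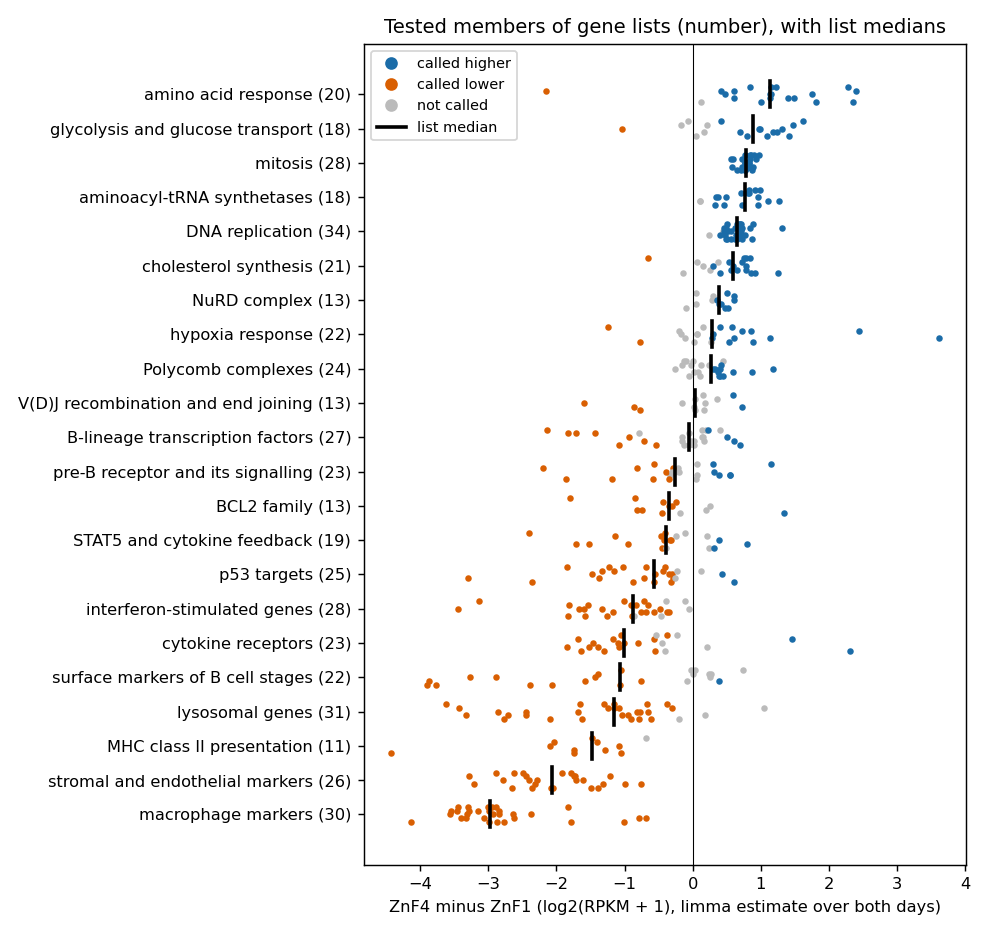
Difference between the mutants (x axis, log2(RPKM + 1), limma estimate) for each tested member of 22 gene lists, coloured by call, with the list median as a black bar and the number tested in brackets. Medians ran from -2.97 for macrophage markers to 1.14 for the amino acid response.

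Genes of amino acid supply were higher. ATF4, a transcription factor made when amino acids run short or other stresses act, drives amino acid uptake and synthesis. Of 20 tested genes of this response 18 were higher and 1, Cebpb, lower, with a median of 1.14. Asns, asparagine synthetase, had 125.4 and 157.6 RPKM in ZnF4 mutant cells, 19.8 and 36.3 RPKM in the ZnF1 mutant, and 36.3 and 74.9 RPKM in wild type (2.35 ± 0.17, adjusted p = 0.000643). Trib3, a pseudokinase that feeds back on ATF4, had 24.3 and 30.8 RPKM against 3.8 and 5 RPKM (2.40 ± 0.15). Atf4 itself was at 271.5 and 399.9 RPKM in the ZnF4 mutant and 131.2 and 171.4 RPKM in the ZnF1 mutant (1.13), and is quoted for its role. In these 3 genes the ZnF4 libraries were above all others. Mthfd2, of mitochondrial folate metabolism (1.49 ± 0.09), was higher as well, and so was Psph, of serine synthesis, at 28.3 and 36.5 RPKM against 13.4 and 18.1 RPKM. The arginine transporter gene Slc7a3 had 3 and 3.7 RPKM with the ZnF4 mutation and at most 0.4 RPKM elsewhere (1.80 ± 0.11). Atf5 (1.13 ± 0.07) lost its call when day was left out of the model or the longest transcript stood for each symbol (adjusted p as high as 0.405). The stress gene Ddit3 was not called (0.13). Without 1 library 15 to 17 of the 20 were higher.

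All but 2 of the 18 tested aminoacyl-tRNA synthetases, which charge tRNAs with amino acids, were higher, with a median of 0.77. Cars had 50 and 57 RPKM in ZnF4 mutant cells, 19.6 and 23.9 RPKM in the ZnF1 mutant and 26.2 and 37.7 RPKM in wild type (1.26 ± 0.10), and Iars differed by 1.10 ± 0.07. In contrast to the synthetases, Gldc, the glycine decarboxylase that breaks glycine down, was among the leading lower genes (-3.93 ± 0.32). It had 3.8 and 1.3 RPKM in ZnF4 mutant cells, 44.3 and 55.5 RPKM in the ZnF1 mutant, and 119.7 and 74.4 RPKM in wild type.

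Promoters of the amino acid response genes were searched for the letters TGATGNAA, the amino acid response element, on both strands of RefSeq's 300 base windows (250 before and 50 after the start, GRCm38.p6). It lay in 5 of 22 windows (22.7%) of the 18 genes that could be matched, against 4.0% of all 32851 windows of the table. Among the windows of all tested genes the share was 2.3%. A match is a description of the letters only. The 250 bases before the start of Asns and Chac1, a glutathione-degrading enzyme, are shown because these genes rose and hold a match, in capitals, 23 and 193 bases before the start.
Asns (chr6:7693210-7693459, minus strand): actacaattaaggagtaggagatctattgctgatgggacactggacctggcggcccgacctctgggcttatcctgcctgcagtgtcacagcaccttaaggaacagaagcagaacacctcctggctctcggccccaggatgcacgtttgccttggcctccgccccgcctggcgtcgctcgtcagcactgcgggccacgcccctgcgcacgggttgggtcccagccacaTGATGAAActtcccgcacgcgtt
Chac1 (chr2:119350992-119351241, plus strand): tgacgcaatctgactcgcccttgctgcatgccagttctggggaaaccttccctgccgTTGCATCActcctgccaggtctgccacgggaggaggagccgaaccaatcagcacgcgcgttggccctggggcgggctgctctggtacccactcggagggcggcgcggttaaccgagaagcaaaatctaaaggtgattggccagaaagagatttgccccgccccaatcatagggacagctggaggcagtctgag
In Chac1 the match is on the other strand. Chac1 had 9.5 and 16 RPKM in ZnF4 mutant cells, 1 and 2.8 RPKM in the ZnF1 mutant, and 1.3 and 5.1 RPKM in wild type (2.28).

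Among 18 tested genes for glycolysis and glucose uptake, 12 were higher and 1, Eno2, lower, with a median of 0.89. Pfkl, a phosphofructokinase at the committed step, had 67.1 and 61.3 RPKM in ZnF4 mutant cells, 22.8 and 22.1 RPKM in the ZnF1 mutant, and 31.5 and 31.4 RPKM in wild type (1.47 ± 0.07, adjusted p = 0.000376). Aldoa, aldolase, had 235.1 and 234.7 RPKM against 102 and 117.4 RPKM (1.09 ± 0.09). Tpi1 (1.31 ± 0.10), Pfkp (1.41 ± 0.09) and Pkm2 (0.98 ± 0.08), the pyruvate kinase gene, followed. In all 5 the ZnF4 libraries were the highest; the ZnF1 libraries were the lowest in Pfkl, Tpi1, Pfkp and Pkm2, and overlapped with wild type in Aldoa. Of 22 tested hypoxia response genes, 12 were higher and 2 lower (median 0.29). Egln3, an oxygen-sensing prolyl hydroxylase, had 9.2 and 11.1 RPKM in ZnF4 mutant cells, 0.9 and 1.2 RPKM in the ZnF1 mutant, and 7.8 and 10.8 RPKM in wild type (2.44 ± 0.10), so the ZnF1 libraries stood apart. Its higher count dropped to 6 when low values were kept, or when the ZnF4 library of day 21 or any of wild type was left out. It was 3 when the ZnF1 library of day 21 was left out and 7 for that of day 28.

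Of 21 tested genes for cholesterol synthesis and uptake 15 were higher and 1 lower (median 0.59). Lss, lanosterol synthase, had 20 and 18.3 RPKM in the ZnF4 mutant against 7.3 and 7.6 RPKM in the ZnF1 mutant (1.25 ± 0.11). Leaving out the ZnF1 library of day 21 left 7 of them higher, and leaving out that of day 28 left 6.

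Genes of DNA replication and mitosis were higher by small and even amounts. Of 34 tested replication genes 32 were higher and none lower (median 0.64), and all 28 mitosis genes were higher (median 0.78). Their single differences ran from 0.23 to 1.31 and from 0.56 to 0.97. Mcm5, a subunit of the replicative helicase, had 132.7 and 140.2 RPKM in ZnF4 mutant cells, 82.9 and 82.1 RPKM in the ZnF1 mutant, and 118 and 119.6 RPKM in wild type (0.72 ± 0.07, adjusted p = 0.0012). Aurkb, the Aurora B kinase, had 95.6 and 104.4 RPKM, against 54.1 and 58.3 RPKM in the ZnF1 mutant and 73.8 and 79.5 RPKM in wild type (0.82 ± 0.06, adjusted p = 0.000752). Relative to each gene's wild type mean, the median of the mitosis list at day 21 and day 28 was -0.55 and -0.47 in ZnF1 libraries, against 0.31 and 0.21 in ZnF4 libraries. The replication count was 20 without the ZnF1 library of day 21, and the mitosis count was 23 to 28 without 1 library. The macrophage and stromal sums given above were several times higher in the ZnF1 libraries, and their part in these differences was not tested.

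The cell cycle homology element, searched as TTTGAA on both strands, lay in 19 of 25 windows (76.0%) of the 23 mitosis genes that could be matched, against 17.9% of all windows. The 250 bases before the start of Ect2, a cytokinesis factor, and of the proliferation marker Mki67 hold it 114 bases and 116 and 98 bases before the start, in capitals. They are shown because the mitosis genes were all higher in the ZnF4 mutant than in the ZnF1 mutant.
Ect2 (chr3:27153879-27154128, minus strand): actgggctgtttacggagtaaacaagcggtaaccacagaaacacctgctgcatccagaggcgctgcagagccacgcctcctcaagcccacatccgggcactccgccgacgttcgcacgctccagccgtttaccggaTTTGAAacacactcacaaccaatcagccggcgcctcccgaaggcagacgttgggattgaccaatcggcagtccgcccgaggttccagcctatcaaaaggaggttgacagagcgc
Mki67 (chr7:135716380-135716629, minus strand): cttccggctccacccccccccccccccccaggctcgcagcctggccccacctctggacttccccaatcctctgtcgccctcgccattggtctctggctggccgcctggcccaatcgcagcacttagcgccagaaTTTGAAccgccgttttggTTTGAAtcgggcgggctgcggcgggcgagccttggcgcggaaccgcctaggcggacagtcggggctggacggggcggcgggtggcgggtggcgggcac
Ect2 had 45.4 and 40 RPKM in ZnF4 mutant cells, 23.9 and 23 RPKM in the ZnF1 mutant and 38 and 36.2 RPKM in wild type (0.84 ± 0.07).

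Of 13 tested D cyclins, their kinases and inhibitors 3 were higher and 5 lower. Cdkn1a, the p21 inhibitor, had 63.1 and 70.7 RPKM in ZnF4 mutant cells, 158.5 and 193.3 RPKM in the ZnF1 mutant, and 162.8 and 154.1 RPKM in wild type (-1.38 ± 0.10, adjusted p = 0.000726). Here the ZnF4 libraries stood apart, and the other 4 overlapped. Cdkn2a, which encodes Ink4a and Arf, had 10.4 and 17.3 RPKM against 20.3 and 41.7 RPKM (-1.06 ± 0.11, adjusted p = 0.00135), and lost its call when day was left out of the model (adjusted p = 0.0883). Cdkn2b was lower by 1.45 on the log2 scale (SE 0.14). The D cyclins, partners of the kinases that these proteins inhibit, differed among themselves. Ccnd2 was lower (-0.93 ± 0.17), but not when day left the model, low values were kept or the ZnF1 library of day 21 was dropped (adjusted p as high as 0.188). Ccnd1, at 31.5 and 33.2 RPKM against 46.1 and 41.1 RPKM, was lower (-0.42 ± 0.09), a call that ended when any single library other than the ZnF4 library of day 28 was left out (adjusted p as high as 0.15). Ccnd3 was not called (-0.33; 95% interval -0.64 to -0.02; adjusted p = 0.0758). Cdk6, their kinase, was higher (0.91 ± 0.16), but not when low values were kept or when either ZnF1 library or the ZnF4 library of day 28 was dropped (adjusted p as high as 0.0945). The list had 0 and 1 higher members when the ZnF1 library of day 21 and of day 28 was left out, and 3 lower ones in the former case.

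Of 25 tested targets of p53, the transcription factor of the DNA damage response, 20 were lower and 2 higher, with a median of -0.57. Trp53inp1, a target linked to cell death and autophagy, had 20.6 and 19.4 RPKM in ZnF4 mutant cells, 42.7 and 49.3 RPKM in the ZnF1 mutant, and 42.5 and 48.6 RPKM in wild type (-1.16 ± 0.09). The RNA-binding gene Zmat3 had 18.3 and 22.3 RPKM, against 42.3 and 41.8 RPKM in the ZnF1 mutant and 37.1 and 39.8 RPKM in wild type (-1.02 ± 0.09). In Trp53inp1, Zmat3 and Cdkn1a wild type was near the ZnF1 mutant. Plk2, a stress-induced kinase, differed from these, with 2 and 2.8 RPKM in the ZnF4 mutant, 14.2 and 18.7 RPKM in the ZnF1 mutant and 4.1 and 4.4 RPKM in wild type (-2.36 ± 0.11). Trp53 itself was among the 2 higher members (0.43). Leaving out the ZnF1 library of day 28 left 11 lower, and neither higher call held when either ZnF1 library was left out. Of 13 tested BCL2 family genes, which set the threshold for cell death, 9 were lower and 1 higher (median -0.35). Both promoters and inhibitors of death were among them: the activator Bmf (-1.80 ± 0.11) and the inhibitor Mcl1 (-0.74 ± 0.07). Bok was higher (1.33 ± 0.09). The lower count of the family was 5 when a wild type library was left out or day left the model. It was 3 when the ZnF1 library of day 21 or the ZnF4 library of day 28 was left out, and 4 for the ZnF1 library of day 28.

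**Figure D5:**
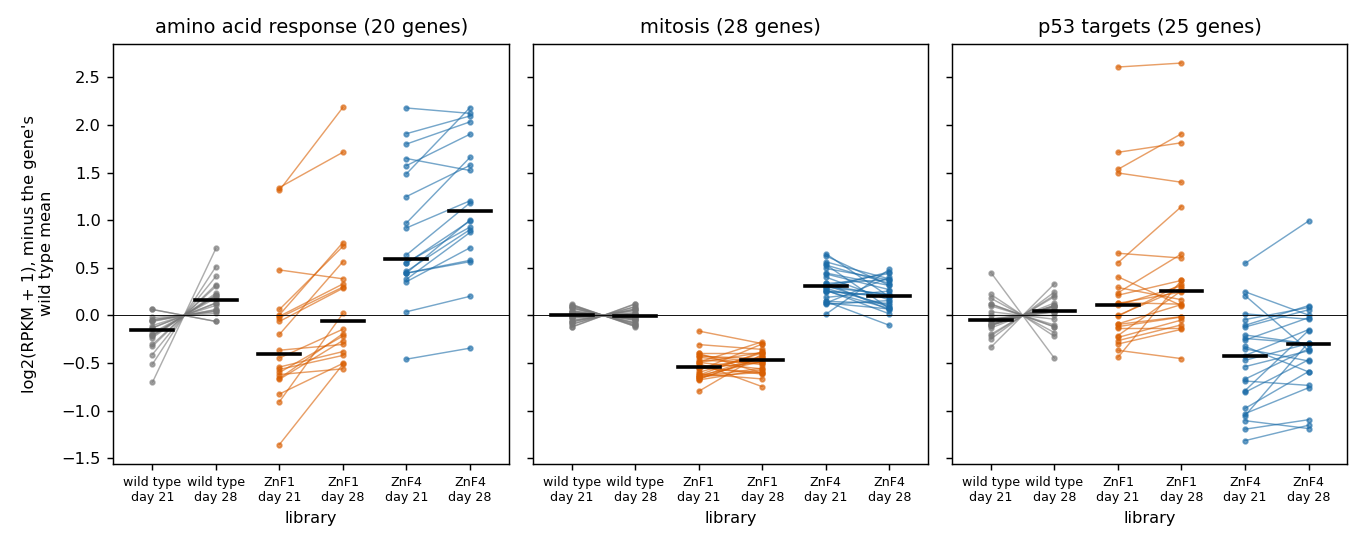
Members of the amino acid response, mitosis and p53 target lists in each library, as log2(RPKM + 1) minus the gene's wild type mean (y axis); thin lines join day 21 and day 28 of a genotype for 1 gene, and black bars are list medians. The mitosis medians were -0.55 and -0.47 in ZnF1 libraries, against 0.31 and 0.21 in ZnF4 libraries.

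Myc, which drives growth and metabolism, had 206.2 and 302.4 RPKM in ZnF4 mutant cells, 141.8 and 145.2 RPKM in the ZnF1 mutant, and 172.7 and 175.9 RPKM in wild type (0.80 ± 0.15, adjusted p = 0.0103). The ZnF4 libraries were the highest, but the call ended when either ZnF1 library was dropped or low values were kept (adjusted p as high as 0.103). Of the 12 tested genes of its network 4 were higher and 5 lower. Mxd4, an antagonist of Myc, had 6.8 and 8.4 RPKM in ZnF4 mutant cells, 30.9 and 41.8 RPKM in the ZnF1 mutant, and 20.4 and 21.9 RPKM in wild type (-2.11 ± 0.10, adjusted p = 0.000376). The higher count of the network was 1 or 2 without any 1 library other than the ZnF4 library of day 28, and the lower count was 3 without the ZnF1 or the ZnF4 library of day 21.

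Of 31 tested genes of adhesion 4 were higher and 16 lower, with a median of -0.44. Ptk2, the focal adhesion kinase gene, had 15.7 and 16 RPKM in ZnF4 mutant cells, 8.3 and 6.1 RPKM in the ZnF1 mutant, and 1.3 RPKM in both wild type libraries (1.05 ± 0.13, adjusted p = 0.00265). The order ZnF4, ZnF1, wild type held in both days. The lower members with the smallest p included Itgb5 (-2.75 ± 0.18), Parva (-1.55 ± 0.09) and Fermt2 (-1.36 ± 0.11). These genes link matrix to the cytoskeleton and are also active in stromal cells. Their ZnF1 levels moved with the stromal sums, whose part was not tested. Fermt2 and Parva were below 1 RPKM in wild type and in the ZnF4 mutant. They passed the filter only through the ZnF1 libraries, so they could be called lower but hardly higher. The higher count was 2 without either ZnF1 library. At a mean RPKM of at least 4, 22 adhesion genes were tested, of which 8 were lower and 4 higher.

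Genes of chromatin complexes that work with Ikaros gave small positive medians, with higher counts that depended on single libraries. Of 13 tested subunits of NuRD, a remodelling and deacetylase complex that Ikaros recruits, 8 were higher and none lower, with a median of 0.39. The remodeller Chd4 had 143.9 and 141.8 RPKM against 111.7 and 102.6 RPKM (0.41 ± 0.07), a call lost without either ZnF1 library (adjusted p up to 0.0868), and the histone-binding subunit Rbbp7 differed by 0.60 ± 0.07. The higher count was 1 without the ZnF1 library of day 21 and 4 without that of day 28. Of 24 tested genes of Polycomb, which represses developmental genes such as the Hox genes, 45.8% were called, near the 45.5% of all tested genes. Of the 24, 11 were higher and none lower (median 0.27), led by Cbx2 (0.87 ± 0.08) and Pcgf2 (1.17 ± 0.14). That count was 2 to 9 without 1 library, with 2 without the ZnF1 library of day 21, 3 without that of day 28 or either wild type library, and 5 without the ZnF4 library of day 21. When low values were kept, 6 Polycomb genes were higher. With the longest transcript for each symbol, 7 of 20 were (median 0.12).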

How the data were processed

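Poly(A) RNA of 6 libraries was sequenced on the Illumina platform, per the labels' protocols. Per the submitters' processing notes TopHat, bedtools and the build mm9 were used, without versions. The authors deposited 1 table of RPKM values, rounded to 1 decimal, for 26531 named rows. Depth is unknown and no counting interval can be given. No column of per-sample values was left unused (0 columns).

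Where a symbol had several rows, the row of highest mean RPKM was kept, which left 22098 symbols. Values were transformed as log2(RPKM + 1), which understates changes of low genes. Linear models with a term for genotype and a term for day were fitted over the 6 libraries with limma 3.58.1 in R 4.3.3; variances were moderated towards their trend with mean level (2 residual and 3.22 prior degrees of freedom), with Benjamini-Hochberg adjustment over 11379 genes. P-values measure only how repeatable a difference was over the 2 days. Calls use an adjusted p below 0.05; 2-fold counts use no test. The script was tested on simulated data. Day pairs the libraries by label. The change from day 21 to day 28 correlated across genes at 0.226 between the mutants, and at 0.249 and 0.433 between each of them and wild type.

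The comparison, the gene lists and the naming rule were chosen with earlier results of these data known. The rule takes, for each direction, the 12 called genes with the largest difference that were 2-fold apart on both days, the 10 largest of those at 4 RPKM or more in both wild type libraries, at most 5 members per list, taken by p, and a set of regulators and cell cycle genes. It passed over 1 microRNA for each direction, and some genes it takes are not reported here. Other genes are named for their role, or after their values were seen, among them Lsp1, Ctsd, Tspan32, Mir675, Atf4, Chac1, Ddit3, Cebpb, Eno2, Mki67, Trp53 and Lyz2.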

Additional observations from a re-analysis of the deposited data

Results flagged for a closer look

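Named genes whose difference between the mutants pointed one way at day 21 and the other way at day 28 were Ikzf3, Vpreb1, Rag1, Lck and Tcf7, none of them called. The differences, ZnF4 minus ZnF1 on the log2(RPKM + 1) scale, were 0.10 at day 21 and -0.14 at day 28 for Ikzf3, and 0.40 and -0.30 for Vpreb1. For Rag1 they were -0.14 and 0.86, for the T cell kinase gene Lck 0.50 and -0.91, and for the T cell factor gene Tcf7 -0.37 and 0.22. With 1 library per genotype and day, whether the days differed was not tested.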

How the results depend on the processing

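No gene was called in the opposite direction under any alternative, and of the 210 named genes that were called 164 kept the call under every alternative; 42 lost it without at least 1 library. The 2 days form a replicate block: without the replicate block 2154 genes were higher and 2478 lower, and among the named genes the calls of Atf5, Ccnd2, Cdkn2a, Cst7, Fkbp5, Nrarp and Txnip were lost. Leaving out 1 library gave 752 to 1854 higher and 1674 to 2180 lower genes; the 2-fold counts on both days cannot be made without a mutant library and stayed at 188 and 1013 without a wild type one. With the 4 mutant libraries only, 1536 genes were higher. A pseudocount of 0.1 gave 287 genes 2-fold higher on both days. Quantile and median scaling gave 3381 and 3329 higher and 2415 and 2431 lower genes. Of their calls 58.3% and 57.8% were higher, against 49.1% in the main fit, so the background shares moved with the scaling. Without the filter 2199 genes were higher and 3363 lower. A mean RPKM of at least 4, which tests fewer genes, gave 1603 lower genes, 112 genes 2-fold higher and 481 genes 2-fold lower on both days. List medians changed sign for Hox genes without the filter (-0.20), DNA methylation without the filter and with the longest transcript (-0.0246 in both), and imprinted genes with a mean RPKM of at least 4 (0.90) and with quantile scaling (0.26). Other medians did so too: B-lineage factors with median scaling (0.01) and without the ZnF1 library of day 28 (0.03) or the ZnF4 library of day 21 (0.01), and ERK feedback with a mean RPKM of at least 4 (0.02). The MYC family did so with the longest transcript (-0.22), with quantile scaling (-0.02) and when either mutant library of day 28 was left out (-0.07 for ZnF4, -4e-04 for ZnF1). V(D)J genes did so without the ZnF4 library of day 21 (-0.04), and T cell markers without the ZnF1 library of day 28 (0.02). The cause was not tested. The unknown depth limits genes near 1 RPKM most.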

Other observations

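Innate immune receptors and chemokines gave further lower genes, beside the macrophage sums of 366.1 and 422.2 RPKM in the ZnF4 mutant against 3212.5 and 3119.5 RPKM in the ZnF1 mutant, whose part in them was not tested. Of 20 tested chemokines and their receptors 17 were lower and none higher, with a median of -1.76, among them Ccl3 (-2.25 ± 0.10). At a mean RPKM of at least 4, 8 of 11 were lower. Among the lower chemokines Cxcl14 passed the filter only through the ZnF1 libraries, so it could be called lower but hardly higher. Of 13 tested genes of Toll-like receptors 9 were lower and 1 higher. At a mean RPKM of at least 4, 9 of these genes were tested, with 5 lower and 1 higher. Tlr1, which was lower, passed the filter only through the ZnF1 libraries. The higher gene was Ly86 (MD-1), the partner of RP105, a Toll-like protein of B cells, with 48.7 and 42.5 RPKM in the ZnF4 mutant, 12.6 and 10.8 RPKM in the ZnF1 mutant, and 5.4 and 7.3 RPKM in wild type (1.88 ± 0.16, adjusted p = 0.000903). It thus moved against the rest of its list, with no overlap between the groups. Tlr7, the sensor of single-stranded RNA, was lower (-2.39 ± 0.11).

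Of 14 tested small heat shock and HSP70 genes 6 were higher and 1 lower. The share called, 50%, was near the 45.5% of all tested genes. Hspb8, a small heat shock protein, had 9.2 and 11.3 RPKM in ZnF4 mutant cells, 1.2 and 3.3 RPKM in the ZnF1 mutant, and 24.3 and 43 RPKM in wild type (1.86 ± 0.18, adjusted p = 0.00116), so both mutants were below wild type. Its partner Bag3 went the other way, at 0.6 and 1 RPKM against 7 and 8.2 RPKM (-2.26 ± 0.16). The higher count was 1 without the ZnF1 library of day 21 and 3 without that of day 28. Fc receptor-like genes were lower in 3 of 4 cases. Fcrl6 had 0.3 and 0.2 RPKM in ZnF4 mutant cells, 2.9 and 3.8 RPKM in the ZnF1 mutant, and 23.4 and 52.7 RPKM in wild type (-1.79 ± 0.29), not called once a ZnF1 library, or that of the ZnF4 mutant at day 28, was dropped (adjusted p as high as 0.0768). Fcrl1 was not called (-0.06; 95% interval -0.29 to 0.17).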
